A study of Mus musculus with 10 samples.

Results

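Amacrine cells are the inhibitory interneurons of the retina, and 10 genes used to recognise them were followed here through RNA-seq and ATAC-seq of cells sorted from injured mouse retinas. The genes were taken by symbol from a list of known amacrine markers: *Gad1*, *Gad2*, *Slc32a1*, *Slc6a9*, *Chat*, *Slc18a3*, *Tfap2a*, *Tfap2b*, *Calb1* and *Calb2*. They are 10 of the 53974 genes in the RNA-seq table, and 2 of the 16600 regions in the ATAC-seq comparison lay within 1000 bp of an end of one of them. All mice were C57BL/6, aged 8 to 10 weeks by their labels, and carried floxed *Arid1a* alleles. The WT group (labelled Arid1a fl/fl) received AAV2-GFP and the cKO group (labelled Arid1a del/del) received AAV2-Cre in the vitreous. The optic nerve was crushed (ONC) 2 weeks later in both groups, and retinas were collected 3 days after that. Both viruses used the CMV promoter, which is not specific to retinal ganglion cells (RGCs), the output neurons of the retina that the sort was meant to enrich. Living cells that bound an antibody to Thy1.2, a surface protein of RGCs that T cells carry too, were sorted from 4 to 5 pooled retinas per sample. RNA-seq covered 3 WT and 3 cKO libraries, and ATAC-seq covered 2 of each.

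Amacrine cells shape the signal that passes from bipolar cells to RGCs. Most release either GABA, made from glutamate by the decarboxylases encoded by *Gad1* and *Gad2*, or glycine, which GlyT1 (*Slc6a9*) takes back up at the membrane. Starburst amacrine cells release acetylcholine as well as GABA and take part in sensing the direction of motion. Many amacrine cells lie displaced in the ganglion cell layer beside the RGCs.

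The label of the sorted cells was checked against marker genes first. RNA levels are given in TPM, a share of all transcripts in a library that is corrected for transcript length. *Pou4f2*, a defining RGC transcription factor, was listed at 0 in 5 of 6 libraries and at 0.143 TPM in cKO replicate 3. *Rbpms*, an RNA-binding protein of RGCs, lay between 1.82 and 6.43 TPM, and *Slc17a6*, the glutamate transporter of RGC synapses, between 0.593 and 1.57 TPM. *Thy1*, the gene behind the sort, was at 51.9 to 88.5 TPM in WT and 94.4 to 129 TPM in cKO. Rod genes summed to 12447 to 17320 TPM in WT and 25518 to 48207 TPM in cKO, so photoreceptor RNA far exceeded that of the RGC list (94.0 to 182 TPM for 13 genes, led by *Thy1*). *Arid1a*, the gene targeted, stood at 18.8, 11.7 and 14.1 TPM in WT and at 18.8, 27.9 and 25.0 TPM in cKO, and was not lower in the libraries labelled cKO (log2 fold change 0.66, adjusted p = 0.274 from limma). Directions below are therefore directions between labels. This value is summed over the gene and all sorted cells, so it cannot show whether the floxed stretch was removed in RGCs. By immunostaining, the authors report less ARID1A protein after AAV2-Cre in retinal cells positive for the βIII tubulin antibody Tuj1. They also describe nearly all sorted cells as positive for Tuj1. The TPM values keep no depth, so no counting error is available for them, and the spread between libraries is the error given throughout. In bulk samples such as these, fewer cells of a type and less RNA per cell cannot be told apart.

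Across the 10 genes, RNA was mostly more abundant in the libraries labelled cKO, but none passed the test across all genes. Together they summed to 490, 371 and 246 TPM in WT and to 1331, 1255 and 649 TPM in cKO, means of 369 ± 122 and 1078 ± 374 TPM (SD, n = 3 libraries each). The lowest cKO sum was thus above the highest WT sum, but this rested on *Slc6a9*. Without it the sums were 239, 240.3 and 163 TPM in WT and 807, 514 and 200.3 TPM in cKO, so that cKO replicate 3 lay among the WT libraries. Of the 10 genes, 9 passed the filter on low values (at least 1 TPM in at least 3 libraries), and *Slc18a3* did not. The fitted difference was above 0 for 8 of the 9, where 61.1% of the 17555 genes tested were above 0. Their median log2 fold change was 1.04, against 0.16 for all genes tested. Differences with an unadjusted limma p below 0.05 are called nominal here. *Slc6a9*, *Calb2* and *Gad2* were nominally higher in cKO and none was nominally lower, against backgrounds of 11.9% and 6.45% over the whole table. Of the 9, 3 had every cKO library above every WT library, beside 18.7% of the genes tested, and 0 had the reverse (7.18%). These were the same 3 genes. After adjustment over all genes none of the 9 was called. A single gene in the whole table was called higher (0.00570%), and none was called lower, although 1133 genes were nominally lower. With DESeq2, a different method, the authors report many more genes as changed, most of them lower in cKO. Scaling the libraries by the median of ratios moved the median of all genes from 0.16 to 0.01, and that of the 9 genes from 1.04 to 0.87. With this scaling 44.2% of nominal differences were toward higher levels in cKO, against 64.9% without it. *Slc6a9* and *Calb2* remained nominally higher, beside 7.57% of all genes in that fit, and *Gad2* did not (unadjusted p = 0.0681 from limma). None of the 9 was nominally lower there, beside 9.54%.

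**Figure D1:**
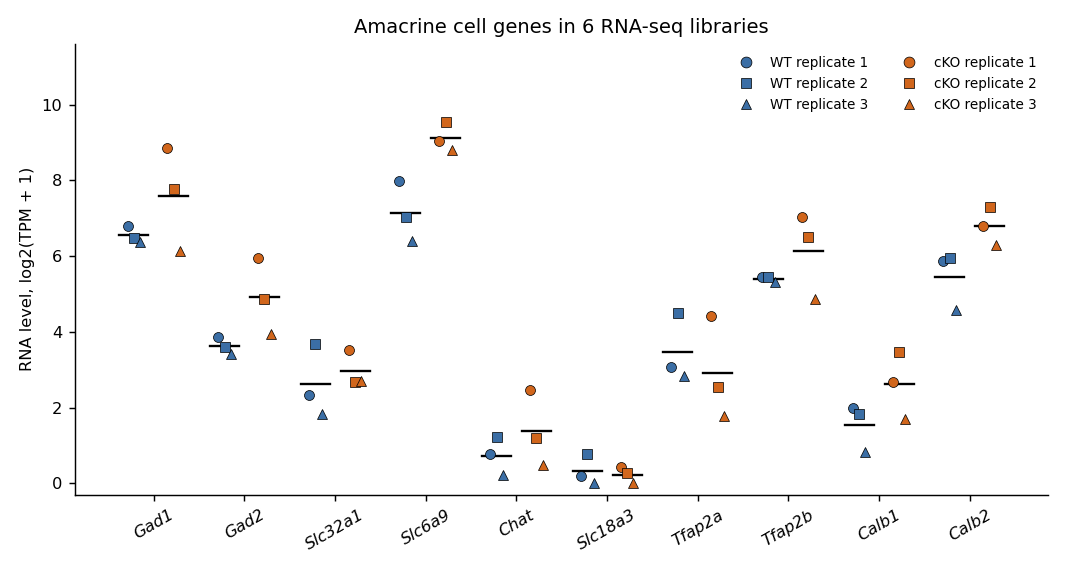
RNA level of the 10 amacrine cell genes on a log2(TPM + 1) axis in the 3 WT (blue) and 3 cKO (orange) libraries, with the replicate number given by the symbol and a bar at each group's mean of log2 values. The cKO points lie above all WT points for *Gad2*, *Slc6a9* and *Calb2*, and replicate 3 (triangles) is the lowest of its group, at 0 for *Slc18a3* in both, for every gene but *Slc32a1* in cKO.

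The libraries differed within each group, and replicate 3 was low in both. Among the 9 tested genes, 6 had their lowest value in WT replicate 3 and 3 in cKO replicate 3. The highest value was in cKO replicate 1 for 4 genes, in cKO replicate 2 for 3 genes and in WT replicate 2 for *Slc32a1* and *Tfap2a*. Without cKO replicate 3, 6 of the 9 genes were nominally higher, *Gad1*, *Tfap2b* and *Calb1* being added, beside 13.4% of all genes in that fit. Without cKO replicate 2 only *Slc6a9* was, of 8 then tested, beside 5.76%. The 6 genes were the same when replicate 3 was left out of both groups, an alternative chosen after seeing the data, beside 10.1%.

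The promoters of 3 genes are shown first because each of these genes has an ATAC-seq region at or near its start. The *Gad2* region differed by less between the groups than those of *Slc6a9* and *Slc32a1*, which had much lower values in cKO. Each line gives the 250 bases before the RefSeq start on GRCm38.p6, 5′ to 3′ on the plus strand. *Slc6a9* has 3 RefSeq starts, and the most upstream is shown. Capitals mark matches to the GC box (GGGCGG) and to the AP-2 motif (GCCNNNGGC), the letters bound by the factors that *Tfap2a* and *Tfap2b* encode.
Gad2 (chr2:22622077-22622326): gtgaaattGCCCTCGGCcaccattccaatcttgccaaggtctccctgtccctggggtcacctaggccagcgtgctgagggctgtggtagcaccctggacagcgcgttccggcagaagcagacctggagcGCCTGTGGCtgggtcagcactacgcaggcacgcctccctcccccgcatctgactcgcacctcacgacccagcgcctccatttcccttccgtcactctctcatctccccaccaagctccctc
Slc6a9 (chr4:117835008-117835257): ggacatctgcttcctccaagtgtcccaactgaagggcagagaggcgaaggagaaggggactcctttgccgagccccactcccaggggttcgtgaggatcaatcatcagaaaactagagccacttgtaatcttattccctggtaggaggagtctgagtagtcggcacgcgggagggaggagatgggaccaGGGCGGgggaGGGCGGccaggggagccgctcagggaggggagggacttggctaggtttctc
Slc32a1 (chr2:158610508-158610757): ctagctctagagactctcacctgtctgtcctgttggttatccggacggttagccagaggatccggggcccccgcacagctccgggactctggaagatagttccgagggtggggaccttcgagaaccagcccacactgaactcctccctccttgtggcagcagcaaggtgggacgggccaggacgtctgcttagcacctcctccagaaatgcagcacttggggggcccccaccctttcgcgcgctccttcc
The *Gad2* promoter held 2 AP-2 matches and no GC box, and the *Slc32a1* promoter held neither. The *Slc6a9* promoter shown held 2 GC boxes and no AP-2 match, and the other *Slc6a9* promoters held neither. The RefSeq table gave 11 promoters for 8 of the 10 genes, with no entry for *Calb1* and *Calb2*. Both strands were searched. A GC box stood in 5 of the 11, beside 32.7% of all 32851 promoters in the table, and an AP-2 match stood in 2, beside 13.7%. These 2 were *Gad2* and *Slc18a3*, and in *Slc18a3* 2 of 3 matches overlapped each other and 1 of these overlapped a GC box. The CCAAT box was found in 2 (*Gad2* and *Chat*, 33.8% of all), the TATA box TATAAA in 1 (*Gad1*, 12.4% of all), and the cAMP response element TGACGTCA in 0 (1.55% of all). A letter match is a description of the window, not a bound site.

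Gene positions below are those of RefSeq on GRCm38.p6. Several of these genes overlap another annotated gene (*Gad1* with *Gad1os*, *Gad2* with *Mir3967*, *Slc6a9* with *Ccdc24*, *Slc32a1* with *Gm14204*, *Tfap2a* with *Gm26688*), and since the strand setting of the RNA-seq kit was not given in the sources used here, RNA of such pairs may be mixed.

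The GABA genes were split between the decarboxylases, which were above every WT library in cKO replicates 1 and 2, and the vesicular transporter, which was not. *Gad1* (chr2:70561303-70602014), which encodes the decarboxylase GAD67, was at 109, 88.2 and 81.6 TPM in WT and at 464, 216 and 69.4 TPM in cKO. Its cKO values spanned the WT range, since cKO replicate 3 was the lowest of all 6 libraries. The log2 fold change was 1.04 (SE 0.63, adjusted p = 0.414 from limma). Without cKO replicate 3 it was 1.77, with an unadjusted p of 0.00271 and an adjusted p of 0.139 from limma, and without cKO replicate 1 it was 0.41, with an unadjusted p of 0.440.

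*Gad2* (chr2:22621015-22693877), which encodes GAD65, the decarboxylase tied to synaptic vesicles, had lower levels, in the same order within each group. It was at 13.7, 11.0 and 9.71 TPM in WT and at 61.1, 28.0 and 14.3 TPM in cKO, means of 11.5 ± 2.01 and 34.5 ± 24.0 TPM (SD, n = 3 each). Every cKO library was above every WT library, but cKO replicate 3 exceeded WT replicate 1 by little. The log2 fold change was 1.29 (SE 0.50, adjusted p = 0.235 from limma), and the exact two-sided permutation p was 0.1, the smallest that 3 against 3 libraries can give. *Gad2* was no longer nominal when any single library other than cKO replicate 3 was left out, and its log2 fold change was 0.77 without cKO replicate 1. *Gad1* stood at 7.59 to 8.41 times the level of *Gad2* in TPM in 5 of the libraries and at 4.85 times in cKO replicate 3, a ratio looked at after the values were seen.

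*Slc32a1* (chr2:158607260-158615747) encodes VGAT, which loads both GABA and glycine into synaptic vesicles. It was at 4.05, 11.8 and 2.53 TPM in WT and at 10.5, 5.45 and 5.46 TPM in cKO. The groups overlapped over most of their range. The log2 fold change was 0.36 (SE 0.53, 95% interval from -0.89 to 1.60, adjusted p = 0.749 from limma), and it came to -0.04 without WT replicate 3, so it had no settled sign.

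*Slc6a9* (chr4:117835258-117869305) was the most abundant of the 10 genes and the one with the largest difference. It was at 252, 130.4 and 83.2 TPM in WT and at 524, 741 and 449 TPM in cKO, means of 155 ± 86.8 and 571 ± 152 TPM (SD, n = 3 each). The lowest cKO library lay well above the highest WT library. The log2 fold change was 1.99 (SE 0.42, 95% interval from 1.00 to 2.98), with an unadjusted p of 0.00204 and an adjusted p of 0.124 from limma. The exact permutation p was again 0.1. It was nominally higher under all 13 alternative settings, and its log2 fold change ranged from 1.62 to 2.41 over them. *Slc6a9* ran apart from *Gad1* in cKO: its TPM was 2.3, 1.48 and 1.02 times that of *Gad1* in WT replicates 1 to 3, and 1.13, 3.42 and 6.46 times in cKO replicates 1 to 3.

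The cholinergic genes had the lowest levels of the 10. *Chat* (chr14:32408203-32465909), which encodes choline acetyltransferase, was at 0.700, 1.32 and 0.170 TPM in WT and at 4.54, 1.28 and 0.392 TPM in cKO. Only cKO replicate 1 stood above the WT values, and the log2 fold change was 0.64 (SE 0.55, adjusted p = 0.565 from limma). Just 5.54% of the genes tested had a lower mean level. *Slc18a3* (chr14:32462437-32464850) encodes the vesicular acetylcholine transporter and lies inside the *Chat* gene. It was listed at 0.154, 0.716 and 0 TPM in WT and at 0.346, 0.199 and 0 TPM in cKO, and was not tested. Reads shared between the overlapping pair could be assigned to either gene. *Slc5a7*, the choline transporter of the same cells, was also low, at 0 to 0.379 TPM in all 6 libraries.

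The AP-2 transcription factors, which mark amacrine cells from their birth onward, did not move as one. *Tfap2a* (chr13:40713802-40738238, minus strand) was at 7.49, 21.6 and 6.11 TPM in WT and at 20.5, 4.85 and 2.40 TPM in cKO. The groups overlapped, and it was the single gene of the 9 with a fitted difference below 0 (log2 fold change -0.56, SE 0.75, adjusted p = 0.722 from limma). Without cKO replicate 3 the difference was 0.02. *Tfap2b* (chr1:19208908-19238845) was tight in WT, at 42.6, 42.7 and 39.1 TPM, and spread in cKO, at 131, 90.4 and 28.1 TPM. Its cKO values thus fell on both sides of WT. The log2 fold change was 0.73 (SE 0.53, adjusted p = 0.497 from limma), and it was 1.37 without cKO replicate 3 (unadjusted p = 0.00164 and adjusted p = 0.139 from limma) and 0.28 without cKO replicate 1 (unadjusted p = 0.593 from limma).

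Of the 2 genes for calcium-binding proteins, *Calb2* was nominally higher in cKO and *Calb1* was not. *Calb2* (chr8:110142526-110168212) encodes calretinin, found in amacrine cells of several types and in some RGCs. It was at 57.6, 60.3 and 22.8 TPM in WT and at 110.0, 157 and 78.1 TPM in cKO, means of 46.9 ± 20.9 and 115 ± 40.0 TPM (SD, n = 3 each), with every cKO library above every WT library. The log2 fold change was 1.34 (SE 0.44, unadjusted p = 0.0179 and adjusted p = 0.186 from limma, exact permutation p = 0.1). *Calb1* (chr4:15881264-15906709) encodes calbindin, which horizontal cells hold as well. It was at 2.95, 2.55 and 0.785 TPM in WT and at 5.43, 10.0 and 2.23 TPM in cKO. The groups overlapped through cKO replicate 3, and the log2 fold change was 1.06 (SE 0.53, adjusted p = 0.332 from limma), between 0.64 and 1.52 with one library left out. With the replicate number as a block its unadjusted p was 0.0184 and its adjusted p 0.153 from limma. The horizontal cell factors *Lhx1*, *Onecut1* and *Onecut2* summed to 0.374 to 1.61 TPM in the 6 libraries.

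**Figure D2:**
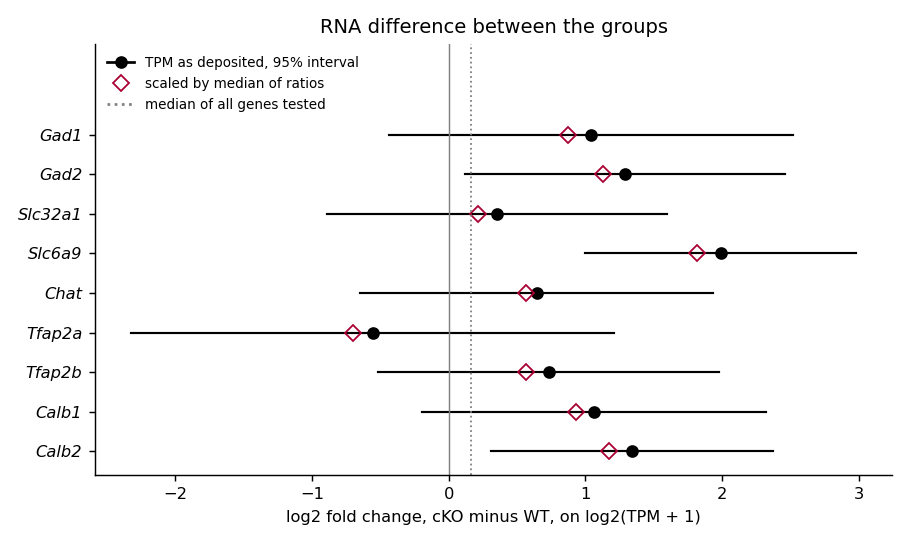
Log2 fold change (cKO minus WT, on log2(TPM + 1)) of the 9 tested genes, with 95% intervals from limma (black) and the same value after median-of-ratios scaling (red diamonds). The dotted line is the median of all genes tested, 0.16. The intervals of *Gad2*, *Slc6a9* and *Calb2* lie above 0, and that of *Tfap2a* is the widest.

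Within WT the levels, by mean TPM, ran in the order *Slc6a9*, *Gad1*, *Calb2*, *Tfap2b*, *Tfap2a*, *Gad2*, *Slc32a1*, *Calb1*, *Chat* and *Slc18a3*. Neighbours in this order overlapped in their ranges over the 3 libraries except for *Gad1* above *Calb2* and *Tfap2b* above *Tfap2a*. In cKO *Slc6a9* remained first at 571 TPM and *Gad1* second at 249.8 ± 199 TPM, with *Calb2* and *Tfap2b* following, and the ranges of *Slc6a9* and *Gad1* overlapped there as well.

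Other genes of amacrine cells were taken from a list of 46 (transcription factors, transmitter handling, neuropeptides and subtype markers). Of these, 35 passed the filter, 27 with a fitted difference above 0 and 8 below, and their median log2 fold change was 0.42 against 0.16 for all genes. Of the 35, 6 were nominally higher in cKO and 0 lower, again beside backgrounds of 11.9% and 6.45%. None passed after adjustment, the lowest adjusted p from limma being 0.124. With the replicate number as a block, 11 were nominally higher and 1 nominally lower (*Penk*), beside 13.4% and 8.52% of all genes in that fit. Leaving out cKO replicate 3 also gave 11 nominally higher, beside 13.4%. Of the 6, 3 were transcription factors (of 15 tested), 2 handled transmitters (of 9) and 1 was a subtype marker (of 6), with none of the 5 neuropeptides.

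Of the 35 tested, 6 had every cKO library above every WT library, beside 18.7% of all genes tested. These were the same 6 genes, and a pick by p favours this pattern. *Slc6a5*, the glycine transporter GlyT2 of glycinergic neurons, was at 4.32, 2.44 and 2.52 TPM in WT and at 9.80, 11.0 and 9.90 TPM in cKO (log2 fold change 1.49, unadjusted p = 0.00133 from limma). *Ache*, the enzyme that breaks down acetylcholine, was at 34.6 to 52.8 TPM in WT and 86.7 to 112 TPM in cKO (log2 fold change 1.16, unadjusted p = 0.00168 from limma). *Tfap2c*, another AP-2 factor of amacrine cells, was at 42.1, 51.4 and 22.2 TPM in WT and at 125, 114 and 101 TPM in cKO (log2 fold change 1.60, unadjusted p = 0.00172 from limma), with no cKO library below WT as *Tfap2a* and *Tfap2b* had. *Pax6*, a transcription factor of amacrine cells and RGCs, lay at 189.8 to 233 TPM in WT and 316 to 485 TPM in cKO (log2 fold change 0.83). *Ebf3* had a log2 fold change of 1.36 with levels of 0.424 to 2.99 TPM in WT and 3.41 to 5.40 TPM in cKO. *Prox1*, which marks AII amacrine cells and also bipolar and horizontal cells, had a log2 fold change of 0.71.

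**Figure D3:**
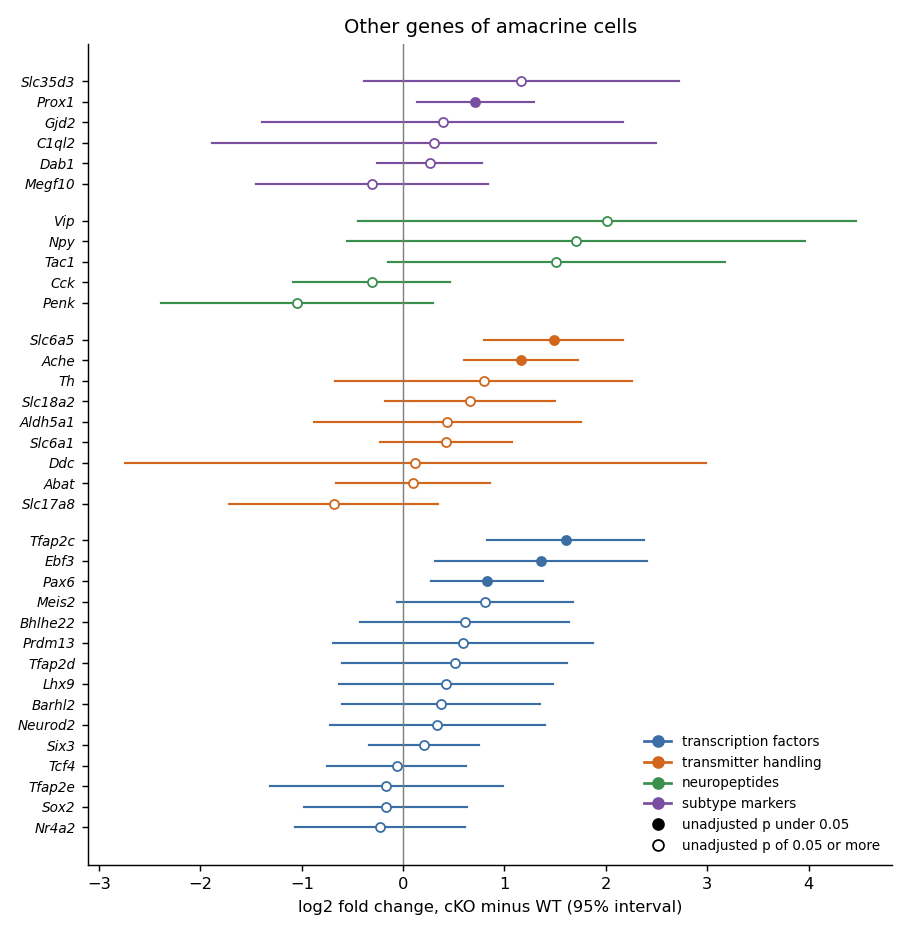
Log2 fold change (cKO minus WT, on log2(TPM + 1)) with 95% intervals from limma for the 35 tested genes of the 46 other amacrine genes, coloured by kind. The 6 filled points, with an unadjusted p below 0.05, are all to the right of 0, and the widest intervals are those of *Ddc*, a transmitter gene, and the neuropeptide *Vip*.

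Markers of other cell types moved with the same labels, and their part in the amacrine differences was not tested. All 9 rod genes and 6 of 7 cone genes were nominally higher in cKO, beside 11.9% of all genes tested. After adjustment none of either list was called. *Gnat1*, the rod transducin, was at 2501 to 3772 TPM in WT and 5815 to 10396 TPM in cKO. Cone genes, led by *Opn1sw* and *Gnat2*, summed to 1793 to 2435 TPM in WT and 3220 to 5935 TPM in cKO. All 8 bipolar genes, *Pcp2* among them, were fitted above 0 with none nominally so, where 61.1% of all genes tested were above 0. But with the replicate block 3 of the 8 (*Pcp2*, *Gng13* and *Cabp5*) and all 7 cone genes were nominally higher, beside 13.4% of all genes. Of the 10 RGC genes tested, 5 were fitted above 0 and 5 below (61.1% of all genes above 0), with a median log2 fold change of -0.14. *Thy1* and *Tubb3* were nominally higher, beside 11.9%. Müller glia genes, led by *Dkk3* and *Apoe*, were fitted below 0 in 8 of 8, where 61.1% of all genes were above 0. Their sums were 9378 to 18596 TPM in WT and 7678 to 17638 TPM in cKO. T cell genes, led by *Cd2* and *Lck*, had sums of 309 to 884 TPM in WT and 82.0 to 189 TPM in cKO. Of these 8 genes, 7 were nominally lower, beside 6.45% of all genes. Myeloid genes, led by *C1qa* and *C1qb*, were fitted below 0 in 6 of 7, where 61.1% of all genes were above 0. Their sums were 1005 to 2025 TPM in WT and 558 to 731 TPM in cKO. Rod sums were highest in cKO replicate 3 and the amacrine sum was lowest there within cKO, so these sums ranked the cKO libraries differently.

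**Figure D4:**
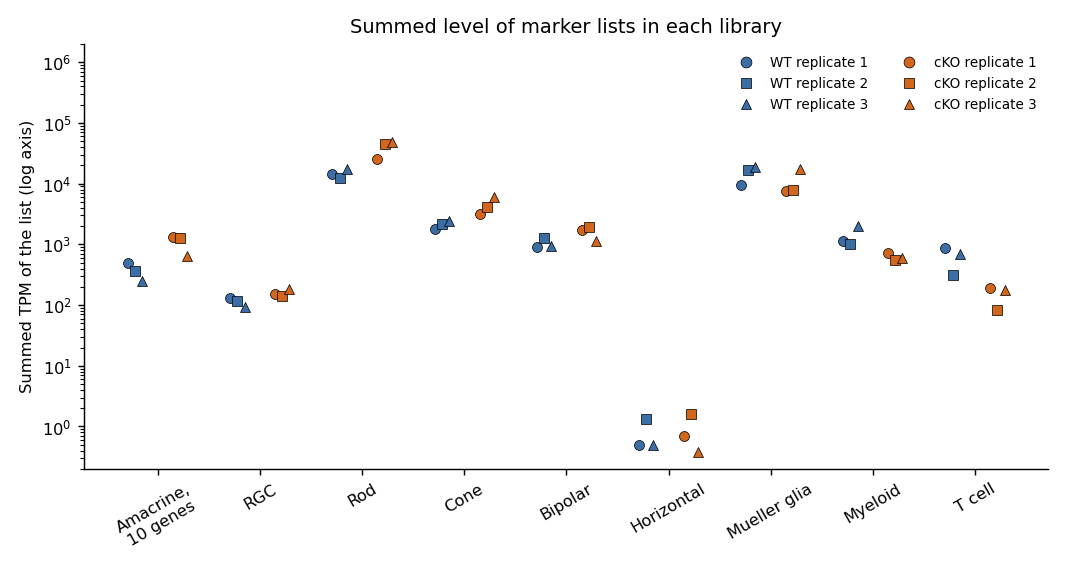
Summed TPM of each marker list in the 6 libraries on a log axis, with WT in blue, cKO in orange and the replicate given by the symbol. Every cKO sum is above every WT sum for the 10 amacrine genes, RGC, rod and cone lists and below for the T cell and myeloid lists, the RGC sum being led by *Thy1*.

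ATAC-seq, which reads open chromatin by transposase insertion, was then compared at the same genes. The comparison table gives 1 value per group, the authors' mean on a log2 scale of normalised reads, so no spread and no test can be given. A region lay within 1000 bp of an end of *Gad2* and of *Slc6a9*, 2 of the 10 genes, beside 37.2% of 21887 protein-coding genes. Regions inside the gene but away from its ends were found for *Gad1*, *Slc32a1* and *Tfap2a*, so 5 of 10 had a region in the gene or at an end, beside 46.4%. None was found for *Tfap2b*, *Chat*, *Slc18a3*, *Calb1* and *Calb2*. All 5 regions had a lower value in cKO, as did 77.3% of all regions, and all but that of *Gad2* were over 2-fold lower, as were 59.6% of all regions.

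The *Gad2* region, chr2:22621398-22622593, covers the start and the whole promoter printed above. Its log2 value was 4.51 in WT and 3.93 in cKO, a difference of -0.58, which is far from the median of -2.56 over the 7171 regions at gene ends. Only 351 of these regions had a higher difference. The *Gad2* region joins peaks of several libraries, and no cKO peak within it reached the printed promoter. The *Slc6a9* region, chr4:117836038-117836870, is centred 1196 bp after the start, downstream of the printed promoter and inside the gene. It had log2 values of 4.75 in WT and 2.25 in cKO, a difference of -2.50, close to the median at gene ends. This difference had the opposite sign to the fitted RNA difference of *Slc6a9*. The same held for the *Gad2* region and for that of *Gad1* below, but no RNA difference was called after adjustment, and that of *Gad1* was not nominal. The RNA differences of *Slc32a1* and *Tfap2a* had no settled sign, so their directions are not compared. Values over 2-fold lower in cKO were held by 92.0% of regions at gene ends.

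Of the regions inside genes, that of *Slc32a1*, chr2:158610699-158611204, also covers a start and takes in the last 59 bases of the printed promoter. It went from 3.89 in WT to 1.39 in cKO, a difference of -2.50 on the log2 scale. The *Gad1* region, chr2:70572052-70572912, is centred 10353 bp after the start and had 4.52 and 2.84. The *Tfap2a* region, chr13:40722605-40723498, is centred 10744 bp after the start and had 5.42 and 2.36, the lowest difference of the 5 at -3.06. The gene table gives no exons, so whether these lie in exons or introns is not stated here.

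Peaks called in each library gave values per sample. A peak within 1000 bp of an end was present at 5 of the 10 genes in WT replicate 1 (*Gad2*, *Slc6a9*, *Slc32a1*, *Tfap2b* and *Calb1*), at 3 in WT replicate 2 (*Gad2*, *Slc32a1* and *Calb1*), at 0 in cKO replicate 1 and at 1 in cKO replicate 2 (*Gad2*). Over all protein-coding genes the shares were 49.4%, 42.9%, 12.4% and 12.8%. For *Slc32a1* and *Calb1* the peaks of the WT libraries lay at opposite ends of the gene. Only at *Gad2* did end peaks of both WT libraries overlap. Counting the whole gene as well as its ends gave 7, 6, 5 and 7 of the 10 genes, beside 65.4%, 57.4%, 46.1% and 47.7%, so the cKO libraries did hold peaks within amacrine genes. The number of peaks called was 76522 and 42265 in WT and 55902 and 68317 in cKO. At the *Gad2* start, a peak spanned it in WT replicate 1 and in WT replicate 2, which had a further peak upstream, and the cKO replicate 2 peak stopped 582 bp before it.

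**Figure D5:**
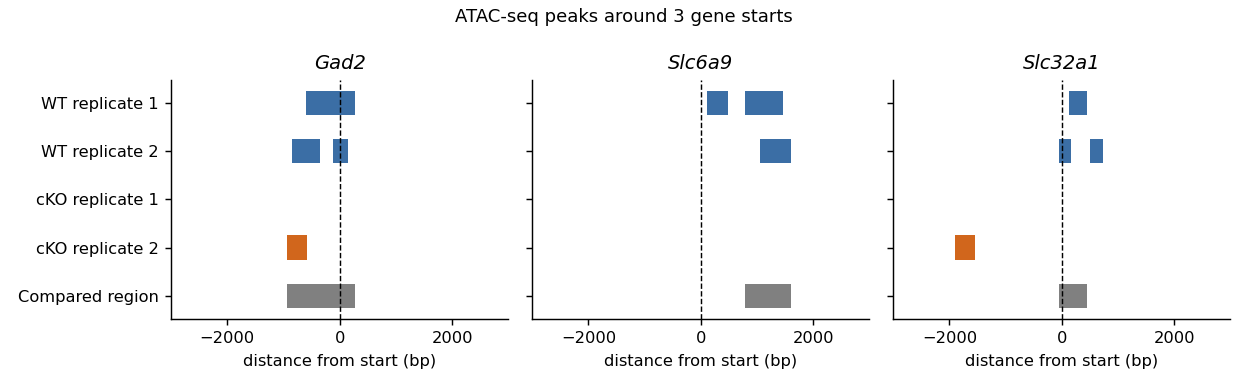
ATAC-seq peaks in each library (WT blue, cKO orange) and the compared region (grey) around the starts of *Gad2*, *Slc6a9* and *Slc32a1*, by distance from the start in bp, with positive values inside the gene. A WT peak spans the start of *Gad2* in both WT libraries and that of *Slc32a1* in WT replicate 2, those of *Slc6a9* begin 103 bp or more after the start, and cKO replicate 1 has none in view and cKO replicate 2 has 1 upstream of *Gad2* and 1 upstream of *Slc32a1*.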

How the data were processed

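RNA-seq was measured in 3 WT and 3 cKO libraries and ATAC-seq in 2 of each, grouped by their labels. The authors made the TPM values by trimming reads, quantifying transcripts with Salmon (1.0.0 in the submitters' processing notes) and summing to genes, and the deposited TPM sum to nearly the same total in each library. Sequencing depth was not given in the sources used here, and TPM does not keep it. The authors made the log2 values of the ATAC-seq comparison by aligning to GRCm38 with Bowtie2 (2.3.5.1 in the same notes) and averaging normalised reads per group with DiffBind. The peak lists hold positions alone, and the notes name MACS2 2.2.5. The authors' own fold changes, p-values and FDR (DESeq2 1.26.0 in the notes for RNA-seq) were not used.

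Genes with at least 1 TPM in at least 3 of 6 libraries were kept, and the groups were set against each other on log2(TPM + 1) by limma (version 3.58.1, under R 4.3.3), whose moderated test used a mean-variance trend. Benjamini-Hochberg adjustment ran over all genes tested, at a threshold of 0.05. A fold change on this scale understates that of low genes. The script was tested on simulated data with 200 changed genes. Exact two-sided permutation tests compared group means of single genes. The labels call the libraries replicates but do not tie them to separate animals, so p-values measure the spread between these pools of retinas. The replicate numbers were checked for pairing: deviations from the group means correlated across genes between same-numbered WT and cKO libraries at 0.334, 0.101 and 0.425. Differently numbered libraries correlated at -0.386 to 0.193, so the replicate 2 pair lay within their range. A fit with the number as a block stands beside the results it changed. A region or peak was placed at a gene when it overlapped by at least 1 bp the 1000 bp on either side of a gene end, since the gene table gives no strand. Positions count from 1. Promoter sequences are those of RefSeq on GRCm38.p6.

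All 10 genes are named, and of the 46 other amacrine genes those with an unadjusted p below 0.05, at most 6 in order of p. Of each other marker list the summed TPM and the 2 genes with the highest mean are given, except some that are not reported here, and *Arid1a* as the check of the labels. Other genes were chosen after their values were seen. The 10 genes and the lists were chosen with earlier results of these data known. Alternatives were another pseudocount, other filters, scaling by the median of ratios, the block, no trend, each library left out, and other windows and overlaps for ATAC-seq.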

Additional observations from a re-analysis of the deposited data

How the results depend on the processing

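No amacrine cell gene passed the adjusted threshold under any of the 13 alternatives that tested it, the lowest adjusted p from limma being 0.0760 (*Slc6a9* with the replicate block). *Chat* was tested in 9 of the 13, *Calb1* in 12, and *Slc18a3* only without the filter on low values. *Calb2* was nominally different in 12 of the 13 and *Gad2* in 7. Leaving out one library at a time, 8 or 9 of the 10 genes were tested and 1 to 6 were nominally higher, against 3 in the main fit. The count was 1 without cKO replicate 2 and 6 without cKO replicate 3. The other amacrine genes had 4 to 11 nominally higher, against 6 in the main fit (11 without cKO replicate 3), and 0 to 1 nominally lower. Over the same fits 5.76% to 13.4% of all genes were nominally higher and 4.12% to 7.7% nominally lower. After adjustment 0 to 1 genes of the whole table were called higher and 0 to 1 lower. The fold change of *Slc32a1* ranged from -0.041 (without WT replicate 3) to 0.89 and that of *Tfap2a* from -1.31 to 0.0173 (without cKO replicate 3). Replicate 3 was also left out of both groups, an alternative chosen after seeing the data. Then 6 of the 9 listed genes tested and 11 of the other amacrine genes were nominally higher, beside 10.1% of all genes. In that fit 0 genes of the table were called higher. The replicate block gave 11 other amacrine genes nominally higher and 1 lower, beside 13.4% and 8.52% of all genes, and 1 gene of the table called lower. It also made *Calb1* nominally higher, 4 of the 9 listed genes tested in all, with 3 bipolar genes and 1 further cone gene. It changed no call of an amacrine gene after adjustment. Without the trend, 4 genes of the table were called higher.

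For ATAC-seq, asking for at least 50% of a region or peak in the window left 1 region and 3 genes with a peak in WT replicate 1. A window of 3000 bp gave 5 genes with a peak in WT replicate 2, 2 in cKO replicate 1 and 4 in cKO replicate 2. No paired analysis was possible because the ATAC-seq table holds 1 value per group, which concerns that assay alone. A stricter peak threshold could not be tried, since the lists hold positions alone. The cause of these shifts was not tested, and unknown depth limits what can be said of genes near 0.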

Other observations

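Several neuropeptide and dopamine genes of amacrine cells varied widely among libraries of the same label. The genes in this paragraph were chosen after their values were seen. *Vip*, a peptide of a sparse amacrine type, was at 151, 65.3 and 6.40 TPM in WT and at 167, 278 and 103 TPM in cKO, a log2 fold change of 2.01 with an SE of 1.04 (adjusted p = 0.346 from limma). *Npy* was at 10.4, 0.885 and 5.71 TPM in WT and at 22.4, 44.0 and 3.71 TPM in cKO, and *Tac1*, which encodes substance P, at 15.6, 3.11 and 13.9 TPM and at 48.2, 38.0 and 11.3 TPM. Both were thus high in cKO replicates 1 and 2 and within the WT range in cKO replicate 3. *Penk*, the enkephalin precursor, was at 24.1, 5.39 and 8.10 TPM in WT and at 7.56, 2.75 and 4.13 TPM in cKO. *Cck* varied less, at 23.4 to 37.0 TPM in WT and 14.9 to 29.3 TPM in cKO. *Sst* was at no more than 0.354 TPM, and *Crh* and *Nts* were listed at 0 in all 6 libraries.

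The dopamine transporter *Slc6a3* was at 12.0 TPM in WT replicate 3 and 20.3 TPM in cKO replicate 3, and at no more than 0.0408 TPM in the other 4 libraries. *Ddc*, which makes dopamine from its precursor, was at 12.1 and 18.4 TPM in the same libraries and between 0.160 and 1.12 TPM elsewhere. *Th*, the rate-limiting enzyme of dopamine synthesis, was at 3.52 and 6.71 TPM there and between 0.442 and 1.75 TPM elsewhere. The vesicular monoamine transporter *Slc18a2* was highest in the same 2 libraries, at 64.9 and 82.7 TPM, beside 28.7 and 33.6 TPM in WT replicates 1 and 2 and 51.4 and 59.9 TPM in cKO replicates 1 and 2. Replicate 3 of each group therefore held the highest levels of these 4 genes and mostly the lowest levels of the 10 amacrine genes within its group.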
